A study of Arabidopsis thaliana with 48 samples.

Results

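Superoxide dismutases turn superoxide into hydrogen peroxide and oxygen, and catalases break hydrogen peroxide down to water and oxygen. The 10 Arabidopsis thaliana genes described here were taken by name and locus out of 33602 loci counted. The rule that names them uses no measured value, but they were chosen with earlier results of these data known. They comprise 7 superoxide dismutases, of which CSD1 (AT1G08830), CSD2 (AT2G28190) and CSD3 (AT5G18100) carry copper and zinc, FSD1 (AT4G25100), FSD2 (AT5G51100) and FSD3 (AT5G23310) carry iron and MSD1 (AT3G10920) carries manganese. The others are the 3 catalases CAT1 (AT1G20630), CAT2 (AT4G35090) and CAT3 (AT1G20620). All 10 passed the filter on low counts in every comparison, with between 410 and 309786 reads per library.

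Leaf RNA of Columbia plants was sequenced in 12 groups of 2 replicates. In 4 groups, plants were kept under growth light of 100, 250, 450 or 700 µmol photons per square metre per second and harvested at labelled day 0.583. In 6 groups, plants under light 250 were harvested at labelled days 0.083, 0.25, 0.375, 0.625, 0.75 and 0.916, which are called diurnal times here. In the last 2 groups, plants were moved from light 100 to light 700 and harvested at labelled days 0.6 and 2.57; the labels describe this step as lasting about 20 h and do not say from which moment days are counted, so the labelled days serve as names only. All plants were 6 weeks old, carried no transgene or mutation that the labels name, and had a 10 h photoperiod with days at 23 °C and nights at 5 °C. RNA of 4 to 6 separately extracted plants per harvest was pooled at random into the 2 replicates, so each replicate is a pool and the tests measure the spread between pools. Each replicate had 20418095 to 36331053 counted reads. The 5 leaf markers looked at summed to 15569 to 45288 counts-per-million (CPM) per library, while the seed storage genes AT4G28520 and AT5G44120 had at most 0 and 3 reads. The 2 replicates lay farthest apart at diurnal day 0.916, where the variance between them was 89.8 times that expected if each count fell independently. In the other groups it was 5.98 to 31.6 times, and between the 2 lanes of one library 1.92 to 2.00 times.

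The isoforms differ mainly in where the proteins sit. CSD1 is cytosolic, CSD2 and FSD1 are chloroplast enzymes (FSD1 occurs in the cytosol as well), CSD3 is peroxisomal and MSD1 mitochondrial. FSD2 and FSD3 form a heterodimer in the plastid nucleoid, where plastid genes are transcribed. Catalases work in peroxisomes, where photorespiration releases hydrogen peroxide in the light; CAT2 is known as the main leaf enzyme of photorespiration, CAT3 as a leaf and vascular form, and CAT1 as a form of seeds and pollen that is weak in leaves. The copper and zinc enzymes need the copper chaperone CCS, and when copper is short the microRNA miR398 lowers CSD1, CSD2 and CCS while FSD1 takes over in the chloroplast.

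Levels below are CPM after TMM scaling over all libraries, given per replicate. A difference is called where the Benjamini-Hochberg adjusted p of edgeR's quasi-likelihood F test, taken over all loci tested, is under 0.05, and log2 changes are given ± their standard error. In bulk leaf tissue, fewer cells of a type and less RNA per cell cannot be told apart.

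On a scale of CPM per kb of exon, CAT3 stood highest with a median of 1422 over the 12 groups and a range of 528 to 2592. The exon length used joins the exons of all annotated mRNA models of a gene. It was 3385 bases for CAT3 with 6 models, 2767 for CAT2 with 3 and 1053 for CSD2 with 1. More models can make the joined length longer and the value lower, so the order of genes is approximate. CSD2 and CSD1 followed at medians of 624 and 573, and their ranges overlapped, 514 to 1251 for CSD2 and 527 to 648 for CSD1. CAT2 had a median of 234 with a range of 142 to 992, so it overlapped both CSD genes above it and MSD1 below it, which had a median of 182 and a range of 164 to 255. The remaining 5 genes were lower in median, FSD1 at 65.6, CSD3 at 45.2, CAT1 at 29.3, FSD3 at 21.4 and FSD2 at 15.4 CPM per kb, and neighbours in that order overlapped in range. The highest group mean was 7.00 times the lowest for CAT2, 4.91 times for CAT3 and 4.82 times for FSD1, whereas for CSD1 it was 1.23 times and for MSD1 1.55 times. By this ratio CSD1 and MSD1 were the steadiest of the 10.

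The first comparison asks how the genes differ between plants grown at different light. CSD2, FSD2 and FSD3, all plastid enzymes, were lower in plants grown at 250, 450 and 700 than in plants grown at 100, and FSD1 and CAT2 were higher at all 3 levels. CSD1, CSD3 and MSD1 passed at none of the 3 with TMM scaling, while with total counts alone CSD1 passed at 450 and 700 and CSD3 at 700 (0.21, adjusted p = 0.0319). Against light 100, 6 of the 10 genes were called at light 250, 5 at 450 and 6 at 700, beside 28.7%, 43.7% and 40.0% of all loci tested. Of the called loci, 49.6%, 49.0% and 49.2% were higher at these 3 levels with TMM scaling and 65.4%, 74.4% and 73.2% with total counts alone, which moved the median log2 change of all loci at 450 and 700 to 0.24 and 0.19; none of the called directions of the 10 genes turned under it.

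**Figure D1:**
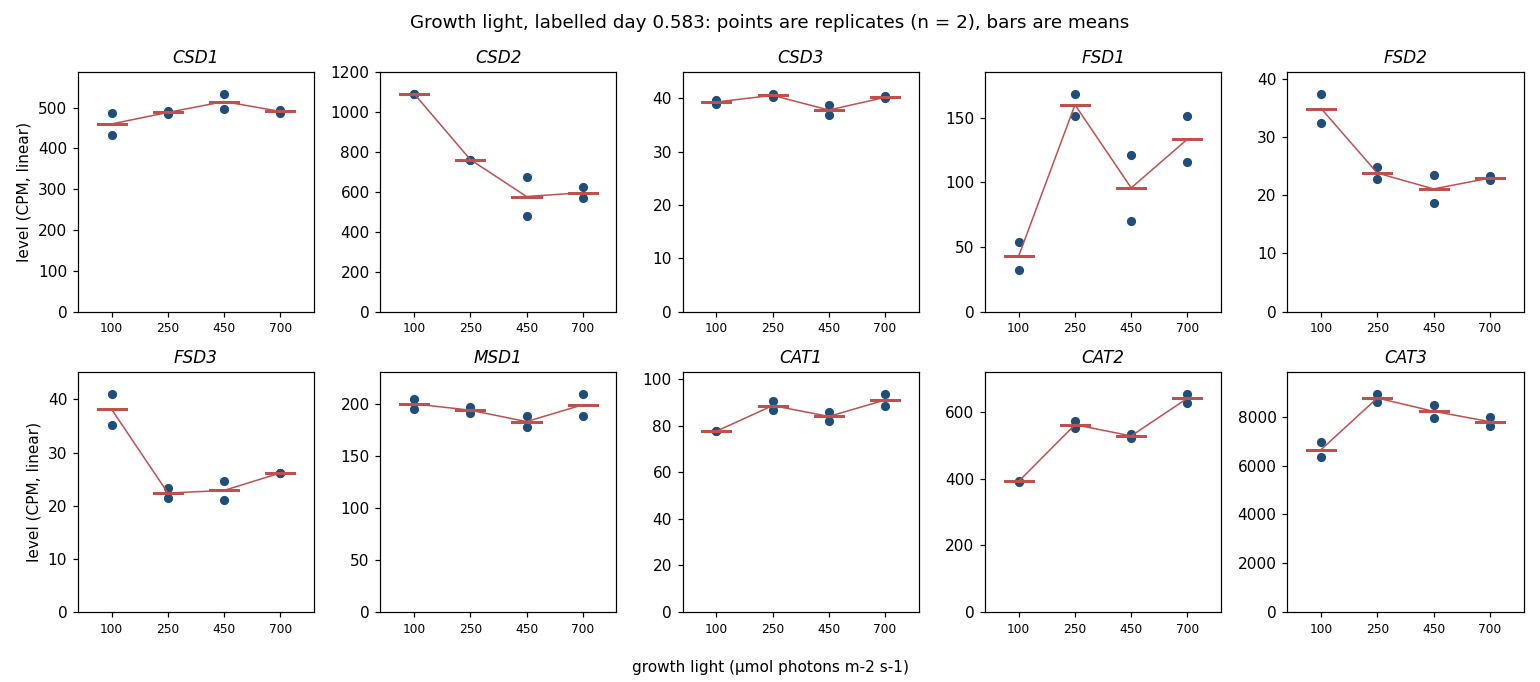
Level of each gene in CPM on a linear axis from 0 (points, 2 replicates per group; red bars and line, group means) against growth light of 100, 250, 450 and 700. FSD1 and CAT2 lie higher at 250, 450 and 700 than at 100, and CSD2, FSD2 and FSD3 lie lower.

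CSD2 had 1093 and 1093 CPM at light 100, 762 and 762 at 250, 676 and 478 at 450 and 623 and 569.6 at 700. Both replicates at 100 lay above all 6 others, and the replicates at 450 lay far apart. The log2 change against light 100 was -0.52 ± 0.14, adjusted p = 0.0126 at 250, -0.93 ± 0.14, adjusted p = 0.00016 at 450 and -0.89 ± 0.14, adjusted p = 0.00026 at 700. The call at 250 was lost without any 1 of the 4 libraries at 100 and 250 (adjusted p from 0.0576 to 0.076).

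CSD1, the cytosolic form with the same metals, had 432 and 487 CPM at 100, 491 and 485 at 250, 534 and 495 at 450 and 495 and 486 at 700. Both libraries at 450 lay above the other 6, the lower of them by less than 1 CPM, and the other 3 groups overlapped. Its log2 changes against 100 lay between 0.078 ± 0.086 at 700 and 0.15 ± 0.086 at 450 with none called. CSD1 passed with total counts alone at 450 (0.39, adjusted p = 0.00143) and 700 (0.28, adjusted p = 0.0123), and it passed at 450 without light 450 replicate 2 as well (0.21, adjusted p = 0.04997). The log2 ratio of CSD2 to CSD1 counts within a library averaged 0.14 at light 450 and 1.25 at light 100. An exact permutation test of that ratio over the 8 libraries gave p = 0.0286 and an adjusted p of 0.0536 over the 15 ratio tests made, so the difference between CSD2 and CSD1 did not pass.

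FSD1 had 53.8 and 32.5 CPM at 100, 151 and 169 at 250, 70.4 and 121 at 450 and 151 and 116 at 700. All 6 libraries above light 100 exceeded both at 100, but the level did not follow the order of the lights, since 450 was the lowest of the 3. The log2 change against 100 was 1.88 ± 0.25, adjusted p = 0.000197 at 250, 1.12 ± 0.25, adjusted p = 0.00302 at 450 and 1.60 ± 0.25, adjusted p = 0.000286 at 700, a 3.04-fold difference at 700. FSD1 is the member that plants raise when copper runs short. The log2 ratio of CSD2 to FSD1 averaged 2.17 at 700 and 4.71 at 100, and its exact permutation test over the 4 lights gave an adjusted p of 0.167.

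For FSD2 the libraries had 37.5 and 32.4 CPM at 100, 24.8 and 22.9 at 250, 23.5 and 18.7 at 450 and 23.3 and 22.6 at 700. FSD3, its partner in the nucleoid, had 41.0 and 35.2 CPM at 100, 21.5 and 23.2 at 250, 24.6 and 21.1 at 450 and 26.2 and 26.1 at 700. For both genes the pair of libraries at 100 lay above the other 6. The log2 change of FSD2 was -0.56 ± 0.11, -0.74 ± 0.12 and -0.62 ± 0.11 at 250, 450 and 700, and that of FSD3 -0.78 ± 0.10, -0.75 ± 0.10 and -0.56 ± 0.10, with adjusted p-values from 0.000104 to 0.00332. The call of FSD2 at 250 was lost without light 100 replicate 1 (adjusted p = 0.0516). A stretch of 185 bases of FSD2 is 96.8% identical to AT4G00651, which had 0 to 3 reads per library, against at least 476 for FSD2.

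CAT2 had 394 and 390.2 CPM at 100, 551 and 572 at 250, 522 and 534 at 450 and 654 and 628 at 700. Replicates lay close together and every library above 100 exceeded both at 100. Its log2 change was 0.51 ± 0.078, adjusted p = 0.000481 at 250, 0.42 ± 0.078, adjusted p = 0.001 at 450 and 0.69 ± 0.078, adjusted p = 2.56e-05 at 700. CAT3 had 6356 and 6965 CPM at 100, 8609 and 8940.4 at 250, 7965 and 8492 at 450 and 7634 and 7977 at 700, and passed at 250 only (0.39 ± 0.11, adjusted p = 0.0196); that call was lost without light 100 replicate 1 or without either library at 250 (adjusted p from 0.0764 to 0.135). At 450 and 700 the values were 0.29 ± 0.11, adjusted p = 0.0517 and 0.21 ± 0.11, adjusted p = 0.151, and both passed with total counts alone, with DESeq2 and without either library at 450. CAT1 was called at 700 (0.21 ± 0.069, adjusted p = 0.0265), which was lost without any 1 of the 4 libraries compared (log2 change from 0.17 to 0.26). At 250 and 450 CAT1 changed by 0.19 ± 0.069 (adjusted p = 0.0613) and 0.099 ± 0.069 (adjusted p = 0.272). Both passed with total counts alone (0.28, adjusted p = 0.0166 and 0.34, adjusted p = 0.00291). The value at 250 also passed with only the groups compared (adjusted p = 0.0336). The log2 ratio of CAT3 to CAT2 averaged 3.61 at light 700 and 4.08 at light 100, with an adjusted p of 0.0536 over the 4 lights by the exact permutation test.

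Genes that work with the superoxide dismutases were counted from lists. Of 14 tested genes of copper handling and miR398, 4 were higher and 5 lower at light 700 than at light 100, beside 19.7% higher and 20.3% lower of all loci, and with a median log2 change of -0.030 against -0.0048 over all loci. All 5 leaf markers, genes of photosynthesis, were lower at light 700 as well, with a median log2 change of -0.98, and their part in these values was not tested. The plastocyanins, the copper proteins of photosynthetic electron transport, fell furthest, PETE1 by -1.35 ± 0.15, adjusted p = 2.3e-05 and PETE2 by -1.17 ± 0.16, adjusted p = 0.000123 on the log2 scale, while the copper importer COPT2 (0.94 ± 0.28, adjusted p = 0.0172) and the copper chaperone ATX1 (0.52 ± 0.077, adjusted p = 0.000194) rose. CCS, the chaperone that loads CSD1 and CSD2, had 125 and 123 CPM at light 700 and 186 and 190.5 CPM at light 100. All 4 libraries were apart by group, and the log2 change was -0.61 ± 0.083, adjusted p = 9.76e-05; at 250 and 450 it was -0.47 ± 0.082 and -0.61 ± 0.083.

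FSD1, FSD2, FSD3 and MSD1 have partners of their own. Of 3 tested partners of FSD1 and MSD1, 1 was higher and 1 lower at light 700, beside 19.7% and 20.3% of all loci. CPN20, the plastid co-chaperonin that activates FSD1, had 225 and 214 CPM at light 700 and 506 and 488 CPM at light 100, a log2 change of -1.19 ± 0.12, adjusted p = 9.83e-06, so it fell in plants where FSD1 was higher. Of the 10 genes for proteins of the plastid RNA polymerase complex, which holds FSD2 and FSD3 as subunits, 10 of 10 were lower at each of 250, 450 and 700, with median log2 changes of -0.68, -0.84 and -0.65. The largest falls at 700 were -1.05 ± 0.085, adjusted p = 2.54e-06 for FLN1, a plastid sugar kinase-like protein, and -1.01 ± 0.097, adjusted p = 8.45e-06 for PTAC14. These shares stand beside 14.4%, 22.3% and 20.3% of all loci that were lower at 250, 450 and 700. Of the 5 leaf markers, 1 was lower at 250 and 5 at 450 and 700, and their part in these falls was not tested. With total counts alone 9, 10 and 9 of the 10 were lower.

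Of the 20 peroxisome and photorespiration genes, 6 were higher and 3 lower at light 700 than at light 100, with a median log2 change of -0.040. Over all loci 19.7% were higher and 20.3% lower, so the 9 of 20 called stand near the 40.0% of all loci. GGAT2, a peroxisomal glutamate glyoxylate aminotransferase, was higher by 1.39 ± 0.078, adjusted p = 2.3e-07 and ACX1, an acyl-CoA oxidase, by 0.57 ± 0.072, adjusted p = 6.31e-05. ACX4, another acyl-CoA oxidase, was lower by -0.55 ± 0.076, adjusted p = 0.000127 and PLGG1, the chloroplast glycolate and glycerate carrier, by -0.43 ± 0.093, adjusted p = 0.00316. NCA1, which catalases need to become active, changed by -0.23 ± 0.070, adjusted p = 0.0225. With total counts alone the counts were 9 higher and 2 lower, and 1 gene that passed under either scaling turned direction.

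The second comparison follows the genes over the 6 diurnal times under light 250. CAT2 and CAT3 moved in opposite directions, with CAT2 highest at day 0.375 where CAT3 was lowest, and CAT3 highest at day 0.625 where CAT2 was lowest. CAT1, CSD3 and FSD1 also differed across the times, while CSD1, CSD2, FSD2, FSD3 and MSD1 did not pass. In the F test over all 6 times 5 of the 10 genes were called, beside 60.0% of all 20958 loci tested, so a diurnal call was no rarer over all loci than over these genes. The median log2 range between the highest and lowest time was 0.60 over the 10 genes and 0.85 over all loci.

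CAT2 had 1356 and 1309.7 CPM at day 0.083, 2487 and 2422 at 0.25, 2772 and 2716 at 0.375, 398 and 420.4 at 0.625, 509 and 482 at 0.75 and 598 and 710.3 at 0.916. CAT3 had 3284 and 3212 CPM at day 0.083, 2455 and 2468 at 0.25, 1812 and 1762 at 0.375, 7874 and 7675 at 0.625, 5347 and 5733 at 0.75 and 4582 and 3586 at 0.916. In both genes the replicates of neighbouring times did not overlap. The log2 range was 2.74 for CAT2 (adjusted p = 7.49e-08) and 2.12 for CAT3 (adjusted p = 4.77e-06); 5.33% of all loci had a range at least as wide as that of CAT2 and 10.4% as wide as that of CAT3.

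**Figure D2:**
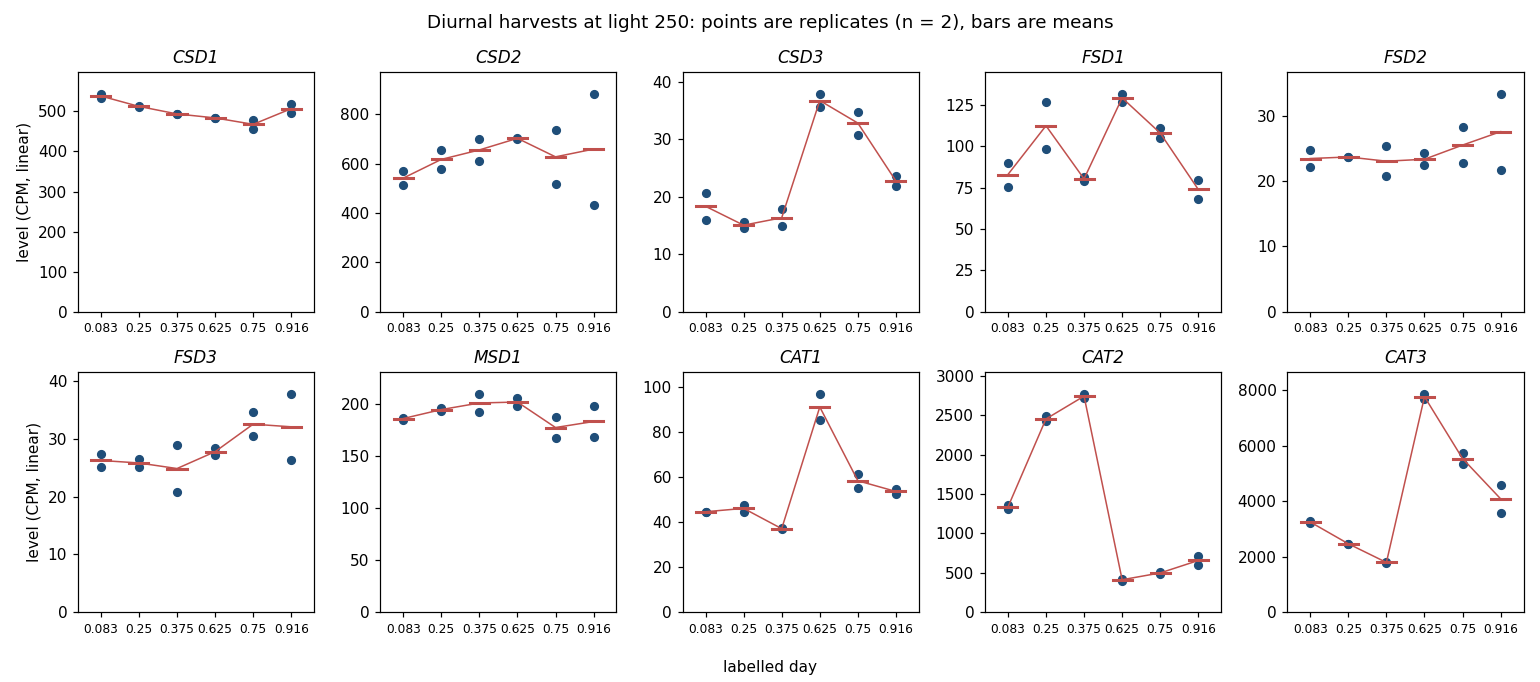
Level of each gene in CPM on a linear axis from 0 (points, 2 replicates per time; red bars and line, means) at the 6 labelled times under light 250. CAT2 is highest at day 0.375 and CAT3 at day 0.625, and the replicates of CSD2 and FSD2 lie far apart at day 0.916.

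The step between neighbouring times that held most of this was day 0.625 against day 0.375, where 5 of the 10 genes were called beside 41.5% of all loci. There CAT2 fell by -2.74 ± 0.13 on the log2 scale (adjusted p = 9.54e-08), a change that 1.73% of all loci matched or exceeded in size, and CAT3 rose by 2.12 ± 0.15 (adjusted p = 1.79e-06), which 3.54% of loci matched. CAT1 rose by 1.30 ± 0.095, adjusted p = 2.34e-06, CSD3 by 1.17 ± 0.14, adjusted p = 7.24e-05 and FSD1 by 0.69 ± 0.14, adjusted p = 0.00207; the call of FSD1 was lost with all 12 groups in one fit (adjusted p = 0.133). Within a library, log2 of CAT3 over CAT2 averaged 4.25 at day 0.625 and -0.62 at day 0.375, so the more abundant transcript by count changed. Its exact permutation test over the 12 libraries gave p = 9.62e-05, the smallest that these arrangements can give, and an adjusted p of 0.0007215. The ratio of CAT1 to CAT2 had the same adjusted p and a log2 range of 4.04.

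**Figure D3:**
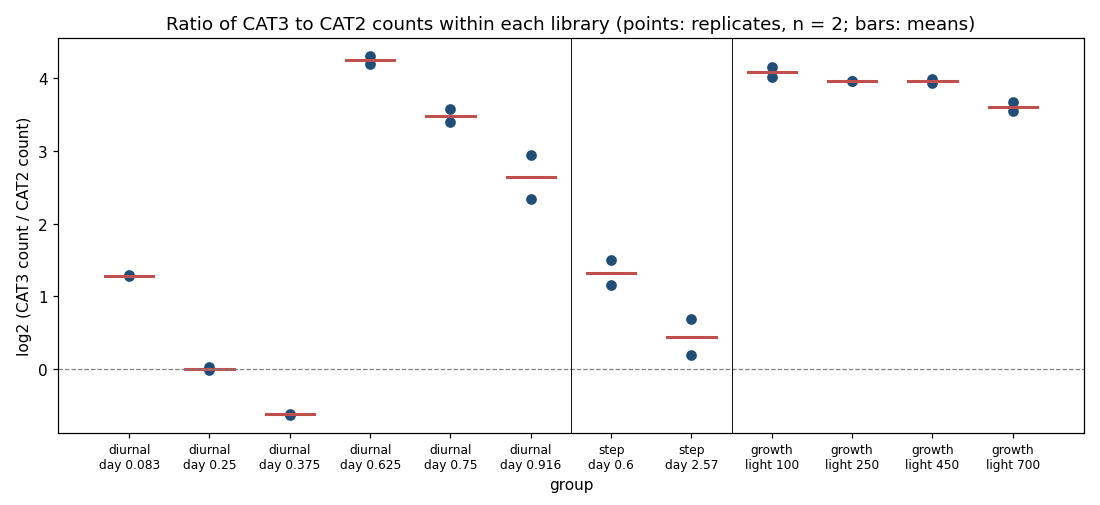
Log2 ratio of CAT3 to CAT2 counts within each library (points; red bars, group means; dashed line at equal counts) for the 6 diurnal, 2 step and 4 growth light groups. The ratio is -0.62 at diurnal day 0.375, 4.25 at diurnal day 0.625, 0.45 at step day 2.57 and 4.08 at growth light 100.

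CAT1 had 44.4 and 44.5 CPM at day 0.083, 44.4 and 47.5 at 0.25, 37.0 and 36.8 at 0.375, 85.2 and 96.7 at 0.625, 55.2 and 61.2 at 0.75 and 54.6 and 52.3 at 0.916. It lay with CAT3, lowest at day 0.375 and highest at day 0.625, where both libraries exceeded all 10 others. CAT1 and CAT3 are neighbours on chromosome 1 (TAIR10.1, chr1:7146636-7150180 and chr1:7142972-7146540), on the same strand and 95 bases apart, while CAT2 lies at chr4:16700312-16703504 on the reverse strand. The transcripts of the 3 catalases are 76.5% to 80.6% identical over 1441 to 1481 bases, under the limit of 85% set here. This is a mean over the aligned length, so it cannot exclude reads shared through shorter stretches that are more alike. At day 0.625 CAT3 had 7874 and 7675 CPM, far above CAT1. The part of reads from CAT3 in the counts of CAT1 was not tested.

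The 300 bases around the annotated starts of CAT3 and CAT2 are shown because these genes had the opposite diurnal courses. They run from 250 bases before the start to 50 after it on the gene's strand, are taken from the RefSeq assembly TAIR10.1, and carry in capitals the motifs found on either strand among 4 searched: the evening element AAAATATCT, the CCA1 site AAAAATCT, the G-box CACGTG and the copper response core GTAC.
CAT3, chr1:7142722-7143021, forward strand: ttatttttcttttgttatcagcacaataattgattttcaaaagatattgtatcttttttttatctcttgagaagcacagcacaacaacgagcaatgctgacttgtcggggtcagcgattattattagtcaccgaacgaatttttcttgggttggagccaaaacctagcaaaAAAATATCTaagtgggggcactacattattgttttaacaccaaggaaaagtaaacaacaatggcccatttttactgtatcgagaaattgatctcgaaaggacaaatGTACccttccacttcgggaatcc
CAT2, chr4:16703455-16703754, reverse strand: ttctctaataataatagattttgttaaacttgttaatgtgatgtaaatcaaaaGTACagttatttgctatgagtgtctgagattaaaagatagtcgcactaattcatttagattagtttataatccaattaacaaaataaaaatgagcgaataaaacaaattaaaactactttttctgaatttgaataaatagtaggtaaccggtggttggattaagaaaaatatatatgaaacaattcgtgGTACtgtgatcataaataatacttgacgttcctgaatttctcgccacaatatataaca
The evening element, a sequence bound by morning clock proteins, begins at -79 in CAT3 and was found in 1 of the 10 genes and in 2.82% of 27439 promoters of the same length. GTAC was found in 5 of the 10, at -197 and -8 in CAT2 and at 28 in CAT3, and in 39% of promoters. The CCA1 site and the G-box were found in 0 of the 10, against 7.88% and 7.68% of promoters. A match describes these letters in this window and nothing more.

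The other diurnal courses were smaller. CSD3, the peroxisomal dismutase, had 20.7 and 16.1 CPM at day 0.083, 15.6 and 14.6 at 0.25, 17.8 and 14.9 at 0.375, 38.0 and 35.6 at 0.625, 34.9 and 30.9 at 0.75 and 21.9 and 23.6 at 0.916. The libraries at 0.625 and 0.75 lay above the other 8, and the range was 1.28 in log2 units, with an adjusted p of 4.7e-05. Of the exon bases of CSD3, 18.9% (142 bases) overlap AT5G18110 on the other strand, which had 848 to 1656 reads per library against 410 to 1553 for CSD3; whether strand was used in counting is not given in the sources used here, so reads of the overlap cannot be told apart. CSD1 and CAT2 overlap opposite-strand neighbours over 4.7% and 3.43% of their exon bases. FSD1 had 90.1 and 75.6 CPM at day 0.083, 127 and 98.2 at 0.25, 81.4 and 79.0 at 0.375, 127 and 132 at 0.625, 111 and 104.8 at 0.75 and 79.8 and 67.8 at 0.916. Its highest libraries were at 0.625 and at 0.25 replicate 1, and the range was 0.82 (adjusted p = 0.00155), which 52.2% of all loci matched.

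Between the other neighbouring times few of the 10 genes were called. At day 0.25 against 0.083 the call was CAT2 (0.90 ± 0.12, adjusted p = 0.00245), beside 7.62% of all loci, and at day 0.083 against 0.916 it was again CAT2 (1.03 ± 0.12, adjusted p = 0.000564), beside 8.50%. At day 0.375 against 0.25, FSD1 (-0.50 ± 0.14, adjusted p = 0.0272), CAT1 (-0.33 ± 0.094, adjusted p = 0.0347) and CAT3 (-0.47 ± 0.14, adjusted p = 0.042) were lower, beside 18.6% of loci. At day 0.75 against 0.625 CAT1 was lower (-0.65 ± 0.093, adjusted p = 0.00363), beside 4.78% of loci. At day 0.916 against 0.75, CSD3 (-0.54 ± 0.14, adjusted p = 0.0193) and FSD1 (-0.56 ± 0.14, adjusted p = 0.0161) were lower and CAT2 higher (0.39 ± 0.12, adjusted p = 0.0423), beside 19.1% of loci. Each of these 3 calls at 0.375 and 3 at 0.916 was lost without some library: at 0.375, FSD1 without day 0.25 replicate 1 or either library of 0.375 (adjusted p from 0.105 to 0.218), CAT1 without any 1 of 7 libraries, those of 0.083, 0.25 and 0.375 and 0.75 replicate 1 (adjusted p from 0.0506 to 0.189) and CAT3 without any 1 of 10, all those outside day 0.916 (adjusted p from 0.0512 to 0.165); at 0.916, CSD3 without day 0.75 replicate 1 or 0.916 replicate 1 (adjusted p from 0.058 to 0.104), FSD1 without day 0.75 replicate 1 or 0.916 replicate 2 (adjusted p from 0.0619 to 0.07) and CAT2 without any 1 of 11, all but 0.916 replicate 1 (adjusted p from 0.0584 to 0.19). The 3 calls at 0.375 were all lost with total counts alone, those at 0.916 were all lost when only the 4 libraries compared were fitted, and so was that of CAT2 at 0.083 (adjusted p = 0.0844). With total counts alone the share of called loci that were higher moved to 28.5%, against 58.8% with TMM, at 0.25, where it shifted the median of all loci to -0.13. It moved to 61.1% against 45.4% at 0.375, to 60.6% against 43.3% at 0.75 and to 47.2% against 57.8% at 0.083.

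Of the genes that did not pass, CSD2 had 434 and 884 CPM at day 0.916, and the levels at the other 5 times, such as 569 and 514 at day 0.083 and 704 and 702 at 0.625, lay between them. Replicate 2 at day 0.916 was also the higher for FSD2, FSD3 and MSD1, and without it CSD2 passed the F test over the times (adjusted p = 0.049), as did FSD3 without replicate 1 (adjusted p = 0.0338). CSD1 stayed between 533 and 544 CPM at day 0.083 and 479 and 456 CPM at day 0.75, and its range of 0.19 had an adjusted p of 0.466. MSD1 ranged by 0.19 and FSD2 by 0.25 on the log2 scale. A p that misses the threshold does not show that these genes were level through the day.

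Some partners differed across the times. MTM1, a mitochondrial carrier linked to MSD1 activity, had 80.4 and 116 CPM at day 0.25 and 4.43 and 5.57 at day 0.625, and its range of 4.32 on the log2 scale (adjusted p = 9.19e-08) stood beside a range of 0.19 for MSD1 itself. Of the 14 tested copper genes 7 were called, of the 10 plastid polymerase partners 4 and of the 20 peroxisome and photorespiration genes 10, shares below the 60.0% of all loci called. Those called in the last list include ACX1 with a range of 1.65, and PEX7, a receptor for peroxisomal import, with 1.37. NCA1 had 131 and 125 CPM at day 0.625 and 87.6 and 87.9 CPM at day 0.375. It rose with CAT1 and CAT3 at that step (0.54 ± 0.096, adjusted p = 0.000962).

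The third comparison follows plants moved from light 100 to light 700, set against plants kept at 100 and plants kept at 700. CAT2 was higher and CAT3 lower in the moved plants than in both sets of kept plants, at both labelled days. FSD3 and MSD1 were higher than in both at both days, and FSD2 at day 2.57. CSD2, which was low in plants grown at 700, was not low in the moved plants. Of the 10 genes, 7 were called at day 0.6 and 7 at day 2.57 against light 100, beside 49.0% and 41.7% of all loci. Against light 700, 8 were called at day 0.6 and 7 at day 2.57, beside 53.4% and 46.3% of loci. The comparisons share their controls, and the growth light 100 and 700 libraries are also those of the first comparison. With total counts alone the share of called loci that were higher fell to 32.5% at day 0.6 and 27.7% at day 2.57 against light 700, where TMM gave 50.2% and 52.1%, and the median of all loci moved to -0.25 and -0.27.

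**Figure D4:**
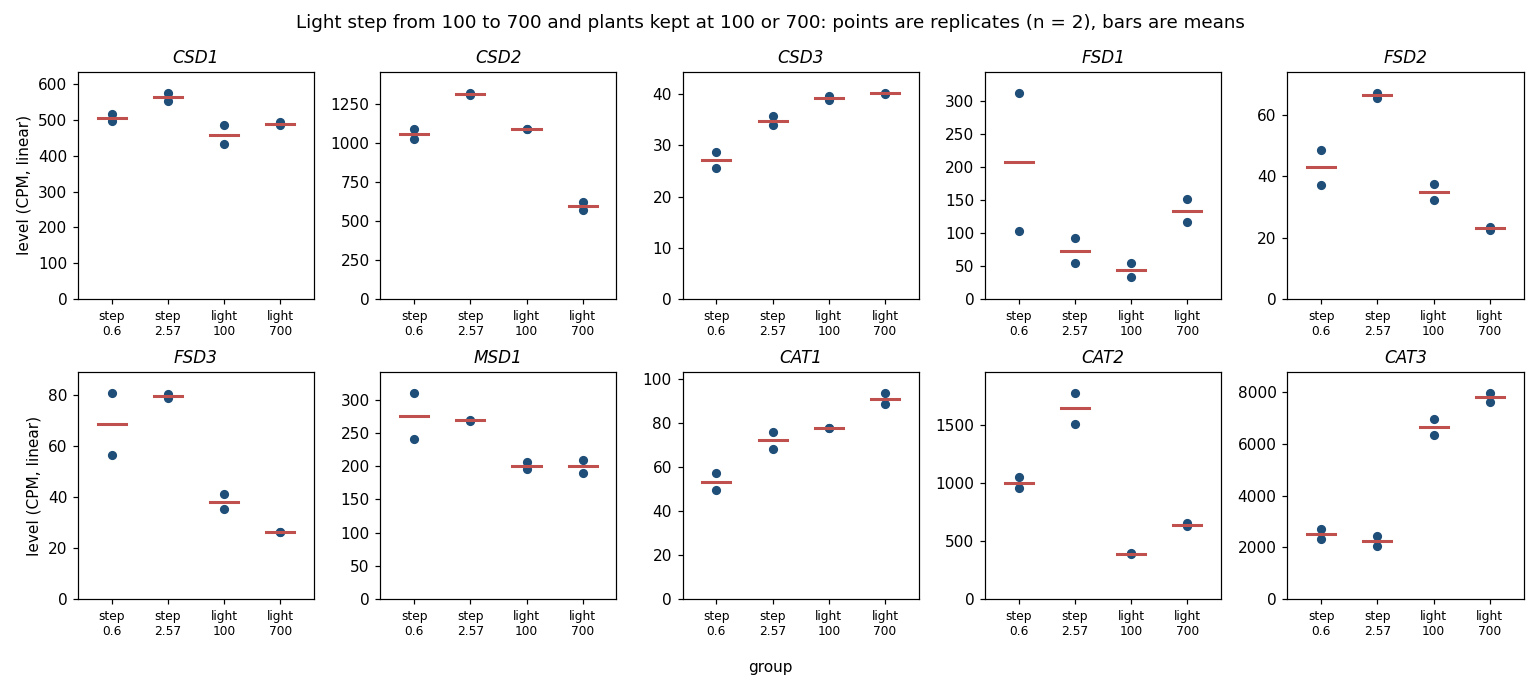
Level of each gene in CPM on a linear axis from 0 (points, 2 replicates per group; red bars, means) in plants moved from light 100 to 700 at labelled days 0.6 and 2.57 and in plants kept at 100 and 700. CAT2 lies above and CAT3 below both kept groups, and the replicates of FSD1 at step day 0.6 lie at 103 and 313 CPM.

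CAT3 had 2695 and 2333 CPM at step day 0.6 and 2434 and 2039 at step day 2.57, against 6356 and 6965 at light 100 and 7634 and 7977 at light 700. The moved plants lay below every kept plant library. The log2 change at day 0.6 was -1.40 ± 0.12, adjusted p = 1.76e-06 against light 100 and -1.61 ± 0.12, adjusted p = 9.66e-07 against light 700, and at day 2.57 -1.59 ± 0.12, adjusted p = 7.99e-07 and -1.79 ± 0.13, adjusted p = 9.29e-07. A change of this size or more against light 700 at day 2.57 was seen in 3.77% of all loci.

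CAT2 had 956 and 1047 CPM at step day 0.6 and 1509 and 1774 at step day 2.57, against 394 and 390.2 at light 100 and 654 and 628 at light 700. Every moved library exceeded every kept library, and day 2.57 exceeded day 0.6. Against light 100 the log2 change was 1.35 ± 0.11, adjusted p = 7.58e-07 at day 0.6 and 2.05 ± 0.11, adjusted p = 3.58e-08 at day 2.57, a 4.15-fold difference, and against light 700 it was 0.67 ± 0.11 and 1.37 ± 0.11. At day 2.57 CAT2 was higher than at day 0.6 by 0.70 ± 0.11, adjusted p = 0.00135. The log2 ratio of CAT3 to CAT2 averaged 0.45 at step day 2.57 and 4.08 at light 100, with an adjusted p of 0.0286 by the exact permutation test over the 8 libraries. That p became 0.0571 without step day 0.6 replicate 1. The harvest labels of these groups are day 0.6, 2.57 and 0.583. The labels do not say whether they stand for the same clock time, and both CAT2 and CAT3 moved with the diurnal times. CAT1, CSD3, FSD1, NCA1, MTM1 and MIR398C also differed between diurnal times, so the same limit holds for their values in the moved plants. It extends to the lists of partner genes. Across the diurnal times 10 of the 20 peroxisome and photorespiration genes and 7 of the 14 tested copper genes were called. So were 4 of the 10 plastid polymerase partners and 2 of the 3 tested partners of FSD1 and MSD1.

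CAT1 had 57.3 and 49.4 CPM at step day 0.6 and 68.2 and 76.0 at step day 2.57, against 77.7 and 77.7 at light 100 and 88.5 and 93.7 at light 700. It was below both kept groups at day 0.6 (-0.54 ± 0.11, adjusted p = 0.00107 against 100, -0.74 ± 0.11, adjusted p = 9.04e-05 against 700). At day 2.57 it was called against 700 (-0.32 ± 0.10, adjusted p = 0.024) and not against 100 (-0.12 ± 0.11, adjusted p = 0.396), and the call against 700 was lost without step day 2.57 replicate 1 or without either light 700 library (adjusted p from 0.0523 to 0.165). NCA1 fell with CAT3 and CAT1, to 71.8 and 75.3 CPM at day 0.6 and 84.5 and 84.3 at day 2.57, against 142 and 141 at light 100. Its log2 change was -0.95 ± 0.092, adjusted p = 3.76e-06 and -0.76 ± 0.091, adjusted p = 2.94e-05.

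The enzymes of photorespiration around CAT2 were taken from the list of 20 peroxisome and photorespiration genes. Of these, 4 were higher and 8 lower at step day 0.6, and 9 higher and 4 lower at day 2.57, than at light 100, beside 25.0% higher and 24.0% lower of all loci at day 0.6 and 22.2% and 19.5% at day 2.57. GGAT2 was higher by 1.40 ± 0.11, adjusted p = 6.61e-07 and GOX1, the glycolate oxidase that makes hydrogen peroxide, by 0.70 ± 0.10, adjusted p = 0.000145 at day 2.57. The acyl-CoA oxidases ACX4 (-1.40 ± 0.10, adjusted p = 4.43e-07) and ACX2 (-1.04 ± 0.12, adjusted p = 2.57e-05), which make hydrogen peroxide in fatty acid breakdown, were lower. At day 2.57 against day 0.6, 10 of the 20 were higher and 0 lower, beside 7.63% of all loci that were higher and 7.56% that were lower. ACX3 (0.74 ± 0.097, adjusted p = 0.000528) and GGAT2 (0.61 ± 0.11, adjusted p = 0.00298) led. The median log2 change of the 20 was 0.34. Among the 5 leaf markers 3 were higher and 0 lower in this comparison, with a median of 0.35, and their part in this was not tested.

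FSD3 had 56.6 and 80.8 CPM at step day 0.6 and 80.5 and 78.6 at step day 2.57, against 41.0 and 35.2 at light 100 and 26.2 and 26.1 at light 700. FSD2 had 37.3 and 48.5 CPM at step day 0.6 and 67.3 and 65.6 at step day 2.57, against 37.5 and 32.4 at light 100 and 23.3 and 22.6 at light 700. Every moved library of FSD3 exceeded every kept one, and for FSD2 the lower library at day 0.6 matched the higher at light 100. FSD3 changed by 0.85 ± 0.14, adjusted p = 0.000396 at day 0.6 and 1.05 ± 0.15, adjusted p = 9.75e-05 at day 2.57 against light 100. FSD2 passed at day 2.57 (0.91 ± 0.13, adjusted p = 9.12e-05) and not at day 0.6 (0.29 ± 0.13, adjusted p = 0.0709), and it was higher at day 2.57 than at day 0.6 (0.62 ± 0.12, adjusted p = 0.00669). Against light 700, FSD2 and FSD3 were higher by 1.55 ± 0.13 and 1.62 ± 0.15 at day 2.57. The log2 ratio of FSD3 to FSD2 averaged 0.67 at day 0.6 and 0.12 at light 100; the exact permutation test over the 8 libraries gave an adjusted p of 0.0286, and 0.1 and 0.169 with the counts of lane 1 or lane 2 alone and 0.0571 without step day 2.57 replicate 2.

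The plastid polymerase partners of FSD2 and FSD3 were higher in the moved plants than at light 700 in 9 of 10 cases at day 0.6 and 10 of 10 at day 2.57, beside 26.8% and 24.1% of all loci. Of the 5 leaf markers, 3 were higher and 1 lower than at light 700 at day 0.6 (median log2 change 0.31), and 3 were higher and 0 lower at day 2.57 (median 0.75); their part in this was not tested. Against light 100, 3 of the 10 polymerase partners were higher and 1 lower at day 0.6, beside 25.0% higher and 24.0% lower of all loci. At day 2.57, 7 of the partners were higher and 0 lower, beside 22.2% and 19.5%, with a median log2 change of 0.42. FLN1 had 89.3 and 84.8 CPM at day 2.57, against 42.6 and 38.5 at light 100 and 19.6 and 20.2 at light 700. Its libraries at day 2.57 exceeded all 4 kept ones, with log2 changes of 1.09 ± 0.14, adjusted p = 4.78e-05 against 100 and 2.15 ± 0.14, adjusted p = 6.59e-07 against 700. PTAC3 was the gene that was lower at day 0.6 (-0.58 ± 0.10, adjusted p = 0.000476 against light 100). With total counts alone 8 of 10 at day 0.6 and 10 of 10 at day 2.57 were higher than at light 700.

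**Figure D5:**
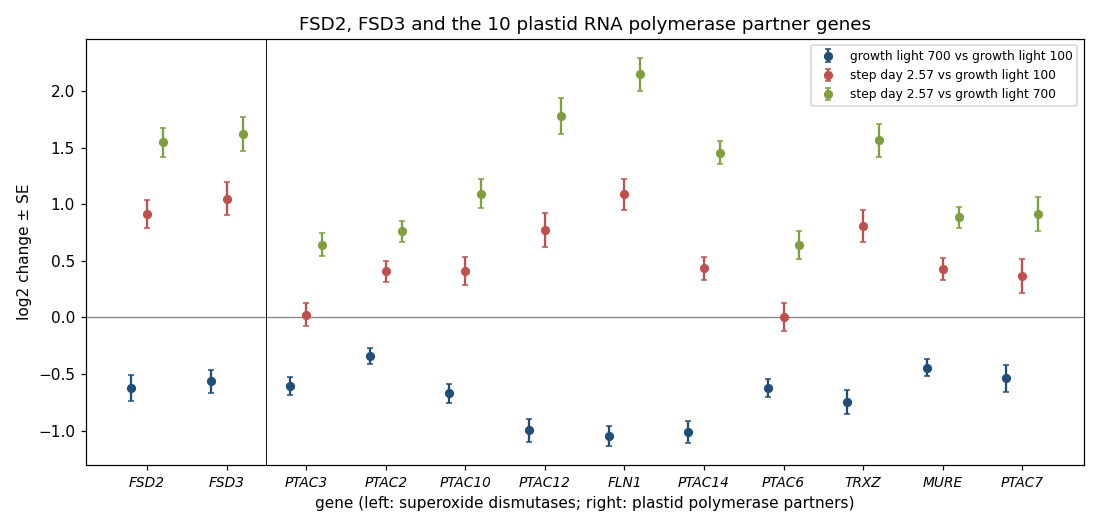
Log2 change ± standard error of FSD2, FSD3 and the 10 plastid polymerase partner genes in growth light 700 against 100 (blue), step day 2.57 against growth light 100 (red) and step day 2.57 against growth light 700 (green). All 12 genes are below 0 in the first and above 0 in the last comparison.

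FSD1 had 103 and 313 CPM at step day 0.6 and 54.6 and 91.6 at step day 2.57, against 53.8 and 32.5 at light 100 and 151 and 116 at light 700. The replicates at day 0.6 were far apart, and replicate 1 lay below the light 700 libraries. The log2 change at day 0.6 against light 100 was 2.26 ± 0.42, adjusted p = 0.000701, and it was 2.85 without step day 0.6 replicate 1 and 1.26 without replicate 2, called in both cases. At day 2.57 it was 0.74 ± 0.41, adjusted p = 0.168, and against light 700 it was 0.67 ± 0.40, adjusted p = 0.175 at day 0.6 and -0.85 ± 0.40, adjusted p = 0.1 at day 2.57. Against light 700 at day 0.6 the value was 1.24 and called without step day 0.6 replicate 1 (adjusted p = 0.00146) and -0.34 without replicate 2 (adjusted p = 0.353). At day 2.57 FSD1 passed without either library of step day 0.6, against light 100 (adjusted p from 0.0205 to 0.0206) and against light 700 (adjusted p from 0.00587 to 0.00737). All 3 of these values also passed with no filter beyond 1 read (adjusted p from 3.51e-07 to 4.77e-05). The fall at day 2.57 against day 0.6 (-1.52 ± 0.40, adjusted p = 0.0259) was -2.12 without step day 0.6 replicate 1 and -0.52 without replicate 2, where the call was lost; it was also lost without either library of step day 2.57 (adjusted p from 0.0649 to 0.254 over these 3) and with DESeq2 (adjusted p = 0.0821). CPN20 had 632 and 938 CPM at day 0.6 and 1077 and 1047 at day 2.57, against 506 and 488 at light 100, and rose by 0.66 ± 0.15, adjusted p = 0.00264 and 1.08 ± 0.15, adjusted p = 9.08e-05; its replicates at day 0.6 were also apart, with replicate 2 higher as in FSD1, FSD2, FSD3 and MSD1.

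CSD2 had 1024 and 1094 CPM at step day 0.6 and 1309 and 1326 at step day 2.57, against 1093 and 1093 at light 100 and 623 and 569.6 at light 700. The moved plants lay with or above those at 100 and far above those at 700. Against light 700 the log2 change was 0.86 ± 0.098, adjusted p = 1.56e-05 at day 0.6 and 1.16 ± 0.098, adjusted p = 3.26e-06 at day 2.57. Against light 100 it was -0.043 ± 0.097, adjusted p = 0.745 at day 0.6 and 0.26 ± 0.097, adjusted p = 0.0491 at day 2.57, and the call at day 2.57 was lost with RLE size factors (adjusted p = 0.0585), with total counts alone (adjusted p = 0.0691) and without any 1 of the 6 libraries of step day 2.57, light 100 and light 700 (adjusted p from 0.0964 to 0.209). CSD1 had 497 and 516 CPM at day 0.6 and 553 and 577 at day 2.57, and its change of 0.29 ± 0.098, adjusted p = 0.0334 against light 100 was lost with total counts alone (adjusted p = 0.0548) and without any 1 of the same 6 libraries (adjusted p from 0.0598 to 0.274).

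MSD1 had 241 and 310.3 CPM at step day 0.6 and 268 and 269 at step day 2.57, against 195 and 206 at light 100 and 210.0 and 189 at light 700. All 4 moved libraries exceeded the 4 kept ones. The log2 change against light 100 was 0.46 ± 0.12, adjusted p = 0.00678 at day 0.6 and 0.41 ± 0.12, adjusted p = 0.0154 at day 2.57, and against light 700 0.49 ± 0.12, adjusted p = 0.00405 and 0.45 ± 0.12, adjusted p = 0.00924; with total counts alone the values against light 700 were 0.25 (adjusted p = 0.0525) and 0.18 (adjusted p = 0.165). The calls of MSD1 against light 100 were lost without light 100 replicate 1 at day 0.6 (adjusted p = 0.0616) and without any 1 of the 4 libraries compared at day 2.57 (adjusted p from 0.0591 to 0.105), and those against light 700 without light 700 replicate 2 (adjusted p = 0.0696 at day 0.6 and adjusted p = 0.132 at day 2.57). MTM1, its mitochondrial partner, was higher by 1.83 ± 0.16, adjusted p = 1.76e-06 and 1.49 ± 0.16, adjusted p = 1.41e-05 than at light 100. MTM1 also differed across the diurnal times, and the labels do not say whether these harvests share a clock time. CSD3 had 25.5 and 28.6 CPM at day 0.6 and 35.8 and 33.9 at day 2.57, against 39.7 and 39.0 at light 100 and 40.4 and 40.0 at light 700. It was lower at day 0.6 (-0.54 ± 0.099, adjusted p = 0.000676 against 100 and -0.54 ± 0.098 against 700), and at day 2.57 the value against 100 was -0.18 ± 0.098, adjusted p = 0.153. Against light 700 the value of CSD3 at day 2.57 was -0.19 ± 0.097, adjusted p = 0.131. With total counts alone that value was -0.46 and passed (adjusted p = 0.00205).

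Between the 2 step harvests, 5 of the 10 genes were called beside 15.2% of all loci. FSD1 was lower at day 2.57 than at day 0.6, and CAT2, FSD2, CAT1 (0.42 ± 0.11, adjusted p = 0.0204) and CSD3 (0.35 ± 0.099, adjusted p = 0.0321) were higher. The call of CAT1 was lost without step day 0.6 replicate 2 or step day 2.57 replicate 2 (adjusted p from 0.0544 to 0.147), and that of CSD3 without any 1 of 7 of the 8 libraries, step day 0.6 replicate 2 being the exception (adjusted p from 0.0592 to 0.159). The call of CAT1 was also lost with total counts alone (adjusted p = 0.0514) and with only the groups compared (adjusted p = 0.0905). That of CSD3 was also lost with DESeq2 (adjusted p = 0.0503), with lane 2 alone (adjusted p = 0.236) and with only the groups compared (adjusted p = 0.144). With total counts alone 40.0% of the called loci were higher, where TMM gave 50.2%.

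Because miR398 targets CSD1, CSD2 and CCS, its sequence and the matching sites are shown. The 3 loci of the family give mature 3p strands with the same seed, which is bases 2 to 8 and in capitals, and differ in the last base. Sequences and sites are from the RefSeq assembly TAIR10.1.
MIR398A 3p: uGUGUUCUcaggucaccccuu
MIR398B and MIR398C 3p: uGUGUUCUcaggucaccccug
The best ungapped match to these strands in each transcript follows, 5′ to 3′, with bases in A:U or G:C pairs in capitals. Bases in G:U pairs are in lower case and are left out of the counts of pairs below.
CSD1 site, 5′ UTR across an intron, chr1:2827177-2827685, forward strand: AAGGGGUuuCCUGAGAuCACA
CSD2 site, coding, chr2:12015572-12015592, forward strand: ugcGGGUGACCUGgGAAacau
CCS site, coding, chr1:4267521-4267541, reverse strand: AuuGGGaGACCUGgGAACACu
COX5B-1 site, 5′ UTR, chr3:5299204-5299224, forward strand: AAGGuGUGACCUGAGAAucac
The site in CSD1 pairs 18 of 21 bases, those in CCS and COX5B-1, a mitochondrial oxidase subunit, 16 each, and that in CSD2 13. The best matches in the other 8 genes pair 12 to 15 bases, with FSD1 at 15, so the count of pairs in an ungapped match did not set CSD2 apart from them.

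Mature microRNAs were not measured, and the counts below are of reads on the precursor loci. MIR398A and MIR398B had at most 2 and 1 reads per library and were not tested. MIR398C had 31.4 and 32.9 CPM at diurnal day 0.083, 49.7 and 46.6 at 0.25, 36.1 and 34.8 at 0.375, 14.1 and 12.7 at 0.625, 11.1 and 10.5 at 0.75 and 14.8 and 13.7 at 0.916. It was highest in the libraries of day 0.25 and lowest in those of day 0.75, with a log2 range of 2.17 (adjusted p = 1.05e-07), while CSD1, CSD2 and CCS did not pass across these times. The labels do not say whether the step and growth light harvests share a clock time. In the moved plants MIR398C had 26.2 and 20.1 CPM at step day 0.6 and 16.4 and 17.1 at step day 2.57, against 12.01 and 11.7 at light 100, changes of 0.97 ± 0.14, adjusted p = 0.00012 and 0.49 ± 0.14, adjusted p = 0.0165. Beside these, CCS changed by -0.52 ± 0.090, adjusted p = 0.000477 and -0.13 ± 0.090, adjusted p = 0.263, and COX5B-1 by 0.36 ± 0.11, adjusted p = 0.0145 and 0.35 ± 0.11, adjusted p = 0.0196. Of the 14 tested copper genes 6 were higher and 3 lower at step day 2.57 than at light 100, beside 22.2% higher and 19.5% lower of all loci. They were led by PAA1 (0.71 ± 0.11), a plastid copper pump, and ATX1 (0.60 ± 0.12) among the higher and by PETE1 (-1.08 ± 0.15) and the thylakoid copper pump PAA2 (-0.76 ± 0.094) among the lower. Between growth lights MIR398C did not pass, at 0.19 ± 0.11, 0.11 ± 0.11 and 0.0052 ± 0.11 for 250, 450 and 700 against 100, where CSD2 and CCS were lower.

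Over the 12 group means the 10 genes fell into patterns that are given as a description, with 12 points that share libraries and scaling. Pearson's r of log2 CPM was 0.96 for FSD2 with FSD3, 0.91 for CSD2 with FSD2, 0.85 for CSD2 with FSD3 and 0.87 for FSD3 with MSD1. It was 0.93 for CSD3 with CAT1 and 0.83 for CAT1 with CAT3, against -0.89 for CAT2 with CAT3. FSD1 had values between -0.22 and 0.17 with the other 9.

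Among 13023 other loci with a mean log2 CPM of at least 3, those most like CSD2 were UPP, AT5G47190 and RPS9, at r of 0.996, 0.988 and 0.987. The loci most like CAT3 were CBSX3, CYP71B19 and RHA1B, at 0.987, 0.986 and 0.984, and those most like CAT2 were NUDX19, SPS1 and BAG1, at 0.978, 0.978 and 0.976. FSD2 was most like IMS1, AT3G28460 and AT4G37920 (0.989, 0.985 and 0.984) and FSD3 most like AT3G28460, OSB3 and CJD1 (0.982, 0.982 and 0.981), so AT3G28460 was on both lists. MSD1 was most like AT5G47030, PHB2 and AT1G72020, at 0.985, 0.979 and 0.975. CSD3 was most like RDR6, AT5G12950 and CYP71B20 (0.991, 0.985 and 0.982), and CAT1 most like AT5G53850, MINE1 and AT5G60940 (0.978, 0.978 and 0.977). CSD1 and FSD1 had no locus this close: for CSD1, AT2G36290, TRA2 and AT5G52810 reached 0.872, 0.831 and 0.828, and for FSD1, TRX3, NAKR1 and AT5G17650 reached 0.828, 0.822 and 0.795.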

How the data were processed

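The authors deposited raw read counts per transcript and lane for 48 lanes of 24 leaf RNA libraries, per the file headers. Bowtie2 and the TAIR10 genome are named in the submitters' processing notes without version or role; the counting tool and the use of strand are not given in the sources used here. The tables list 41671 transcripts each. The growth light table was deposited as 2 identical copies, one after the other, and only 1 of them entered the sums. The 12 columns shared between tables held identical values. For step day 2.57, the names of 2 columns differ only in letter case. Each was joined to the replicate whose other lane it resembled (variance ratio 1.91, against 7.57 to 7.62). Counts were summed over lanes and over the transcripts of a locus. Even values made up 70.4% of the counts from 1 to 10, and halved counts were 1 alternative.

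Loci were filtered with filterByExpr and tested with edgeR 4.0.16 (TMM, quasi-likelihood F tests, R 4.3.3) in 3 fits: the 4 growth lights, the 6 diurnal times, and the 2 step groups with growth light 100 and 700. P-values were adjusted over all loci. Log2 count ratios between members (pseudocount 0.5) were compared by exact permutation of an F statistic, which has no direction, over 105 or 10395 arrangements, with p-values adjusted over 15 tests; with 105 arrangements the smallest p is 0.009524. DESeq2 1.42.0, other scalings, filters and subsets were alternatives. The fits were first tested on simulated counts, and the ratio test on simulated log2 ratios. Symbols, positions and sequences come from the RefSeq annotation of TAIR10.1, which matched 32835 loci, and transcripts were compared with blastn 2.17.0. The members, lists and tests were chosen with earlier results of these data known. Beside the members, the text names from each list up to 2 genes with the largest rise and up to 2 with the largest fall past the threshold, CCS, the MIR398 loci and NCA1, and the 3 loci most like each member; other list genes were named with their values known. With 2 pooled replicates per group, p-values measure the spread between pools.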

Additional observations from a re-analysis of the deposited data

How the results depend on the processing

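Of the 150 values of the 10 genes, 70 passed the threshold, 48 of these under all 38 settings tried where they could be fitted; 22 lost the call under some setting, 18 of them under a setting other than a left-out replicate. None of the called values turned direction under these settings, and 61 sign changes occurred in values that passed in neither. The cause of the changes below was not tested. Fewer libraries leave fewer residual degrees of freedom, and with 1 library left in a group it is assumed to vary like the others. With all 12 groups in one fit 6 calls were lost, those of CSD2 at light 250 (adjusted p = 0.122) and at step day 2.57 against light 100 (0.376), of CAT1 at light 700 (0.0723) and of FSD1 at day 0.375 (0.367), 0.625 (0.133) and 0.916 (0.305). The number of the 10 genes called at light 450 against 100 was 5 and became 8 with total counts alone. At day 0.25 against 0.083 it was 1 and became 3 with DESeq2 or without day 0.916, and 2 with no filter beyond 1 read, with the replicate block, with the first transcript model or with only the groups compared. At 0.375 against 0.25 it was 3 and became 0 with total counts alone and 1 with either lane alone. At 0.75 against 0.625 it was 1 and became 2 with DESeq2, no filter, all 12 groups in one fit or without day 0.916. At 0.916 against 0.75 it was 3 and became 1 with lane 2 alone and 0 with only the groups compared. At 0.083 against 0.916 it was 1 and became 2 with DESeq2 and 0 with only the groups compared. At step day 2.57 against 0.6 it was 5 and became 3 with only the groups compared. With each replicate left out in turn it was 3 to 7 at light 250, 1 to 3 at day 0.25, 0 to 3 at 0.375, 1 to 2 at 0.75, 0 to 3 at 0.916, 1 to 3 at 0.083, 4 to 8 at step day 2.57 against light 100 and 2 to 5 at step day 2.57 against 0.6. Among the ratios, the adjusted p of the exact test across growth lights became 0.04762 for CAT3 to CAT2 and for CAT1 to CAT2 with lane 2 alone, and 0.04762 for CSD2 to CSD1 with the replicate block. Across the step groups that of CAT1 to CAT2 was 0.02857 and became 0.05714 with lane 1 alone and 0.05357 with the first transcript model, and that of FSD3 to FSD2 became 0.1 with lane 1 and 0.1694 with lane 2. With each replicate left out these p-values were, across growth lights, 0.04762 to 0.1587 for CAT3 to CAT2, 0.04762 to 0.1429 for CAT1 to CAT2, 0.02381 to 0.1039 for CSD2 to CSD1 and 0.04082 to 0.3187 for CSD2 to FSD1; across the step, 0.02857 to 0.05714 for CAT3 to CAT2, CAT1 to CAT2 and FSD3 to FSD2 and 0.02857 to 0.1169 for CSD2 to CSD1; and 0.02381 to 0.6358 for CSD2 to FSD1 across the diurnal times. Over all loci, calls at day 0.25 numbered 1598, against 2885 with only the groups compared and 2699 without day 0.916. At 0.75 they were 1002, against 1548 with DESeq2, 1683 with all 12 groups and 1788 without day 0.916. With only the groups compared they were 769 in place of 3997 at 0.916, 258 in place of 1781 at 0.083 and 1586 in place of 3137 at step day 2.57 against 0.6. With a replicate left out they were as few as 3433 at light 250 (5926), 267 at 0.25 and 224 at 0.75, 1761 at 0.375 (3891), 2292 at 0.916 and 552 to 3233 at 0.083, and 1185 to 5026 at step day 2.57 against 0.6. Replicate numbers did not pair the libraries, since RNA was pooled at random; the differences between replicates 1 and 2 correlated between groups at r of -0.63 to 0.43 over 66 pairs of groups, and 3 of the 70 calls were lost with the replicate block. The lowest count of a member in a library was 410 reads.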
